A study of Mus musculus with 8 samples.

Results

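Immunoglobulin transcripts were compared between tumor and small intestine of APC mutant mice, which are prone to intestinal tumors. Genes were chosen by symbol, as heavy chain variable, diversity and constant genes, kappa variable and constant genes, and lambda variable and constant genes, with at least 20 counts summed over 8 libraries. The rule took 218 of the 43629 genes in the count table. It matched 312 genes by symbol, of which 41 had 0 counts and 53 had fewer than 20. The 218 members were 111 heavy chain variable segments (Ighv), 92 kappa variable segments (Igkv), 3 lambda variable segments (Iglv), 8 heavy chain constant genes, the kappa constant gene Igkc, the lambda constant gene Iglc2, the diversity segment Ighd1-1 and Ighmbp2. Ighmbp2, a DNA and RNA helicase gene on chr19:3259076-3283017, matched by its letters alone and is no immunoglobulin gene. For every share of counts given here 217 members were left, but Ighmbp2 stayed in the numbers of members tested and called. Of the V members, 13 are annotated as pseudogenes. Ighv5-1, Igkv4-83, Ighv1-17-1 and Ighv11-1 stood just inside the minimum with 20 counts each, and Ighv1-28 with 19, Igkv18-36 with 18 and Ighv4-2 with 18 stood just outside it.

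The 4 tumor libraries and the 4 small intestine libraries were of polyadenylated RNA from mice of a mixed C57B6/129 strain, and the 8 are labelled as APC mutant and as having had no treatment. The labels give neither the Apc allele nor an age. Whether the 4 libraries of a tissue are from different animals is not stated, so the p-values speak of the spread among these libraries alone, and that spread may be technical.

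An antibody is built from 2 heavy and 2 light chains. A B cell joins 1 variable (V), 1 diversity (D) and 1 joining (J) segment into its heavy chain gene, and a V and a J segment into its light chain gene, kappa or lambda. The constant gene that follows sets the isotype: naive B cells carry IgM and IgD, and class switching replaces these with IgG, IgE or IgA. Plasma cells, the antibody-secreting end stage, hold far more immunoglobulin RNA than B cells, and those of the gut wall make mainly IgA, which the epithelium carries into the lumen. In bulk tissue, fewer cells of a type and less RNA per cell cannot be told apart.

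The V segments on which the comparison of usage turns are shown by the last 120 coding bases of the GRCm38 reference transcripts (GENCODE M21), 5′ to 3′ in the sense of the gene, with the last in-frame cysteine codon in capitals. The codon for the conserved cysteine closes the last framework region, and the bases after it start the stretch where V meets D or J. Ighv1-81 (chr12:115920279-115920712, minus strand), Ighv14-2 (chr12:113994469-113994898, minus strand) and Ighv5-6 (chr12:113625506-113625956, minus strand) are shown because their share of the Ighv counts was higher in each tumor library than in each small intestine library. Ighv7-1 (chr12:113896408-113896946, minus strand) showed the opposite. Ighv3-6 (chr12:114288152-114288582, minus strand) was the most used segment of 2 tumor libraries, and Igkv1-117 (chr6:68121046-68121827, plus strand) and Igkv1-110 (chr6:68270485-68271267, plus strand) led the kappa segments of tumor. Ighd1-1 (chr12:113482170-113482192, minus strand), the D segment that passed the minimum, is shown whole.
Ighv1-81: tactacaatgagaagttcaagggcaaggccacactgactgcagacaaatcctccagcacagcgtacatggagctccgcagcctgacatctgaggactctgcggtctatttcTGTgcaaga
Ighv14-2: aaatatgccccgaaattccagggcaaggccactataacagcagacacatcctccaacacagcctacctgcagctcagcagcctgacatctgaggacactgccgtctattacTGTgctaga
Ighv5-6: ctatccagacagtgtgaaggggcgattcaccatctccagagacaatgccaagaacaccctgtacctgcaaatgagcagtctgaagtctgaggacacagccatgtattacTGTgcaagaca
Ighv7-1: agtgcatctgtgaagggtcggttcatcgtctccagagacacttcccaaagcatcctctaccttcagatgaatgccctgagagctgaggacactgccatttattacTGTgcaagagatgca
Ighv3-6: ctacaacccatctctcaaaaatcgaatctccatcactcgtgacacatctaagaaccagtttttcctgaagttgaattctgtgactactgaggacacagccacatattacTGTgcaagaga
Igkv1-117: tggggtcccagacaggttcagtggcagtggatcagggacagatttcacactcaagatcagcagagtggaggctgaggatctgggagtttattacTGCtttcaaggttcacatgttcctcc
Igkv1-110: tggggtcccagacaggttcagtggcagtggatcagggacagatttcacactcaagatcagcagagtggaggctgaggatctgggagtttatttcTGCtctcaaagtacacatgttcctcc
Ighd1-1: tttattactacggtagtagctac

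Over the last 280 bases, Igkv1-117 and Igkv1-110 were 96.8% identical, whereas Ighv1-81 was 57.5% identical to Ighv3-6 and 79.4% to Ighv14-2. The median identity of a member to the closest other annotated segment of the same locus, member or not, was 95.4% for Ighv and 94.3% for Igkv. How the deposited counting shared out reads that match several segments is not given in the sources used here. The reference is of C57BL/6 origin and the mice are partly 129, so reads from 129 alleles may have been counted to other segments or lost. The part this has in the count of any V segment or constant gene, Ighg2c and the other Ighg genes included, was not tested.

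Tumor libraries held 53856561 to 67371180 gene-assigned counts and small intestine libraries 62347648 to 84433335. Levels in CPM, counts relative to the library total, are scaled by TMM, edgeR's correction for composition, whose factors were 1.33 to 1.38 in tumor and 0.687 to 0.788 in small intestine. The tissue labels were checked by marker genes: 6 of 6 Wnt target genes rose in tumor (Notum, 290.2 against 0.208 CPM on average) and 6 of 6 enterocyte genes fell (Sis, 27.3 against 6392 CPM), by edgeR's quasi-likelihood test at a Benjamini-Hochberg adjusted p under 0.05.

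Immunoglobulin genes took up to 1.36% of the counts of a library, and the share varied several-fold within each tissue. The share of all counts was 0.321%, 0.730%, 1.36% and 1.30% in tumor replicates 1 to 4 and 0.350%, 0.487%, 0.262% and 0.0733% in small intestine replicates 1 to 4. Tumor 1 lay below small intestine 1 and 2, so the groups overlapped, at 0.928% ± 0.494 in tumor and 0.293% ± 0.173 in small intestine (SD, n = 4 each). The sum is over the members, so no test was made of it. In both tissues heavy constant genes held most of these counts, 57.2% ± 0.506 in tumor and 63.1% ± 1.00 in small intestine (SD, n = 4). Per transcript length, from the deposited FPKM, their mean share was 25.9% in tumor and 31.0% in small intestine.

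Among heavy chain constant genes, IgA transcripts made up nearly the whole in tumor, and IgM, IgD and IgG transcripts a larger part in small intestine. Igha (chr12:113254830-113260236), the alpha constant gene, held 97.5%, 96.9%, 96.8% and 96.8% of the heavy constant counts in tumor 1 to 4 and 76.5%, 81.7%, 89.9% and 78.1% in small intestine 1 to 4. The lowest tumor library was above the highest small intestine library. The means were 97.0% ± 0.367 and 81.6% ± 6.0 (SD, n = 4; exact 2-sided permutation p = 0.0286, the smallest that 4 against 4 can give, adjusted p = 0.0429 over 9 within-locus measures).

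The IgM share, from Ighm (chr12:113418558-113422730), was 0.149%, 0.0585%, 0.0476% and 0.0719% in tumor and 7.19%, 6.27%, 3.15% and 8.53% in small intestine (exact permutation p = 0.0286, adjusted p = 0.0429). The IgG share, summed over Ighg1, Ighg2b, Ighg2c and Ighg3, was 2.29%, 3.03%, 3.15% and 3.15% in tumor and 13.8%, 9.98%, 6.04% and 10.4% in small intestine (exact permutation p = 0.0286, adjusted p = 0.0429). For both isotypes each tumor library lay below each small intestine library. Per transcript length, from the deposited FPKM, the means in tumor and small intestine were 97.4% and 86.3% for IgA, 0.0474% and 3.63% for IgM, 0.00241% and 1.19% for IgD, and 2.50% and 8.83% for IgG. On that scale the groups still did not overlap, and the exact permutation p of IgA, IgM and IgG was still 0.0286. Their adjusted p was 0.0514, because it also depends on the other measures among the 9.

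**Figure D1:**
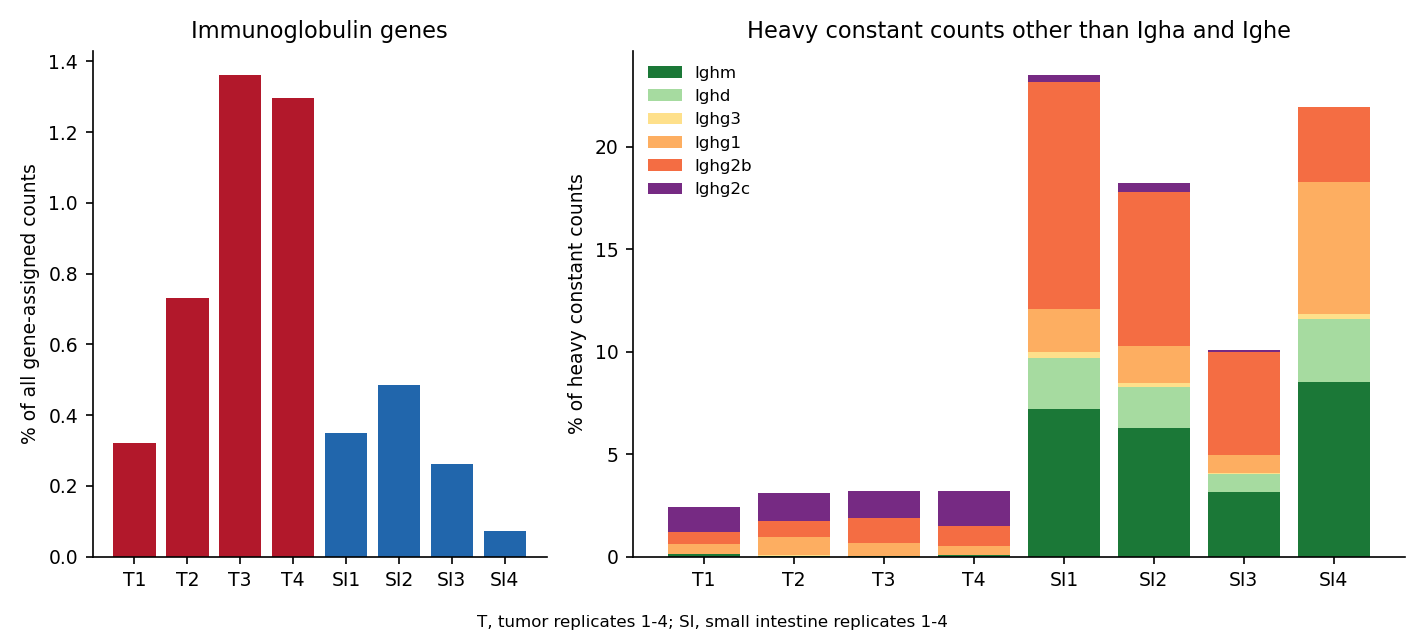
Left, immunoglobulin genes as percent of all gene-assigned counts in each library, tumor in red and small intestine in blue. Right, stacked bars of the heavy constant counts other than Igha and Ighe as percent of all heavy constant counts. T is tumor and SI small intestine, each with replicates 1 to 4. The Ighg subclasses together were the largest part in each library, at 2.29% to 3.15% in tumor and 6.04% to 13.8% in small intestine. Ighm was at 0.0476% to 0.149% in tumor and 3.15% to 8.53% in small intestine.

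Taken gene by gene, the B cell isotypes fell in tumor while the IgA gene did not pass the test in either direction. Ighd (chr12:113406604-113416324), the delta constant gene, had 2, 6, 0 and 8 counts in tumor 1 to 4 and 3926, 4844, 903 and 1186 in small intestine 1 to 4. On average it stood at 0.0466 ± 0.0426 CPM in the tumor libraries against 48.3 ± 33.8 CPM (SD, n = 4 each), and its log2 fold change was -9.92 ± 0.84 (SE; edgeR adjusted p = 5.18e-06). Ighm was at 2.02, 1.82, 2.82 and 3.86 CPM in tumor and at 197, 269, 68.8 and 57.3 CPM in the small intestine libraries, and its log2 fold change was -5.81 ± 0.59 (edgeR adjusted p = 1.75e-05).

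Igha was at 1321, 3014, 5739 and 5195 CPM in tumor and at 2099, 3502, 1963 and 524 CPM in small intestine. The groups overlapped, and the log2 fold change was 0.92 ± 0.58 (edgeR adjusted p = 0.177). With library totals in place of TMM it was 1.77 (adjusted p = 0.0222), so this call depended on the scaling between tissues. Ighe, the epsilon constant gene, had 9, 11, 8 and 7 counts in tumor and 9, 7, 1 and 0 in small intestine and was too low to be tested.

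**Figure D2:**
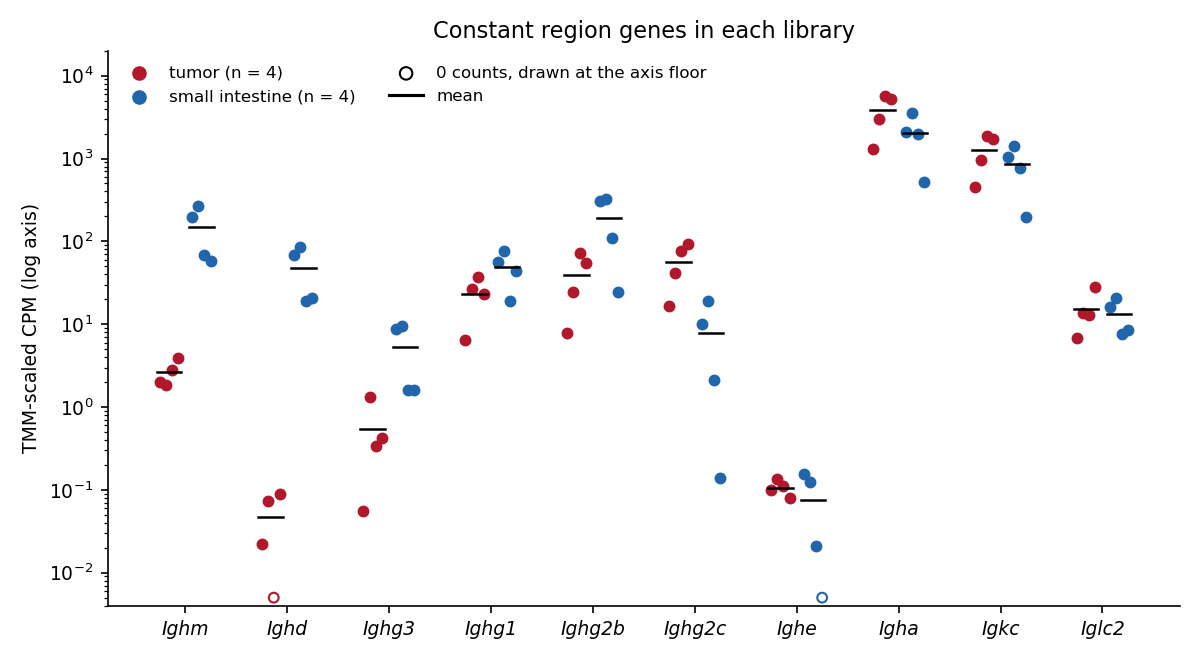
TMM-scaled CPM (log axis) of each constant gene, with 1 point per library, tumor in red and small intestine in blue, bars at the mean of 4 libraries and open circles at the axis floor for 0 counts. Ighd and Ighm lay lower in each tumor library than in each small intestine library, whereas Igha and Igkc overlapped.

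The IgG subclasses did not move together. Ighg2c (chr12:113285325-113288932) held 53.9%, 44.3%, 40.9% and 54.2% of the Ighg counts in tumor and 2.63%, 4.47%, 1.61% and 0.198% in small intestine, without overlap. Ighg2b (chr12:113302965-113307933) held 25.0%, 26.2%, 38.8% and 31.9% in tumor and 80.1%, 75.4%, 82.6% and 35.1% in small intestine, where replicate 4 fell within the tumor range. In that library Ighg1 held 62.4%, against 14.5% to 17.9% in the other small intestine libraries and 13.7% to 28.1% in tumor. These subclass shares were not tested, and neither was the part of 129 alleles in them.

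In CPM, Ighg2c rose from 7.84 ± 8.64 to 56.7 ± 33.9 (SD, n = 4; log2 fold change 2.85 ± 1.04, edgeR adjusted p = 0.0315). Ighg2b fell from 190.0 to 39.8 CPM on average (log2 fold change -2.26 ± 0.84, edgeR adjusted p = 0.0338) and Ighg3 from 5.36 to 0.539 CPM (log2 fold change -3.31 ± 0.93, edgeR adjusted p = 0.00948). Ighg1 was at 23.4 and 49.0 CPM in tumor and small intestine and was not called (log2 fold change -1.06, edgeR adjusted p = 0.0908). The Ighg2b call was lost with library totals (log2 fold change -1.42, adjusted p = 0.144) and without small intestine 1, small intestine 2, tumor 1, tumor 2 or tumor 4 (adjusted p of 0.0524 to 0.0840). The Ighg2c call was lost without small intestine 1, small intestine 3, tumor 3 or tumor 4 (adjusted p of 0.0611 to 0.0724), and its log2 fold change was 3.79 without small intestine 2. That of Ighg3 was -4.27 without tumor 2.

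Light chain transcripts were mostly kappa in both tissues. Igkc (chr6:70726435-70726966) averaged 1250 ± 663 CPM in tumor against 853 ± 509 CPM (SD, n = 4 each; log2 fold change 0.55 ± 0.58, edgeR adjusted p = 0.410), and Iglc2 (chr16:19198396-19200351) at 15.3 and 13.3 CPM (log2 fold change 0.20, edgeR adjusted p = 0.693). The lambda share of light constant counts was 1.51%, 1.39%, 0.688% and 1.6% in tumor and 1.55%, 1.46%, 0.978% and 4.13% in small intestine, which overlapped (exact permutation p = 0.429, adjusted p = 0.482). Iglc2 was the sole lambda constant gene whose symbol matched, so lambda chains with other constant genes enter only through their V segments. The lambda share of light V counts was larger, at 9.51%, 9.23%, 6.20% and 7.40% in tumor and 15.9%, 5.03%, 4.03% and 25.4% in small intestine, which overlapped.

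The Iglv genes, chosen here after their values were seen, differed among themselves. Iglv3 rose from 1.81 to 11.2 CPM (log2 fold change 2.62 ± 0.70, edgeR adjusted p = 0.00701), Iglv2 fell from 2.19 to 1.05 CPM (log2 fold change -1.06 ± 0.40, edgeR adjusted p = 0.0369), and Iglv1 averaged 54.3 against 29.4 CPM (edgeR adjusted p = 0.142). The fall of Iglv2 was lost with library totals (log2 fold change -0.17) and without tumor 1, 2 or 3 or small intestine 2 or 4 (adjusted p of 0.0562 to 0.112), and on the FPKM scale its sign turned (0.03). Within the Iglv counts, the Iglv2 share was 1.44% to 1.89% in tumor and 2.80% to 11.6% in small intestine.

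Relative to the constant genes, V segment counts were higher in tumor. Ighv counts per 100 heavy constant counts were 19.3, 19.6, 19.3 and 20.3 in tumor and 9.12, 9.56, 8.65 and 10.7 in small intestine. Igkv counts per 100 Igkc counts were 64.7, 67.6, 64.5 and 65.4 in tumor and 32.3, 38.2, 33.8 and 46.2 in small intestine. Neither ratio overlapped between tissues, and no test was made of them. From FPKM, the Ighv ratio was 81.3 per 100 in tumor against 41.6, and the Igkv ratio 72.5 against 50.3.

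By the test across the whole table, 71 of 174 tested members, Ighmbp2 included, rose in tumor and 6 fell. Over all 17029 tested genes, 74.3% were called, 38.9% as higher and 35.4% as lower, so the 40.8% of tested members that rose is near the background and the 3.45% that fell is below it. The median log2 fold change of the tested members was 1.64 and that of all tested genes 0.07. The 44 members that were not tested did not pass the filter on low counts, and a member high in a single tissue passes it through that tissue, so these counts describe the tested members only. With library totals, 111 rose and 3 fell, and the median of all genes moved from 0.07 to 0.93.

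Of the 111 Ighv segments 83 were tested, 36 rose and 1 fell, and of the 92 Igkv segments 78 were tested and 32 rose. The ranges of the libraries did not overlap for 36 of the 174 tested members as higher in tumor, Ighmbp2 included, and for 3 of the 174 as lower. Both are smaller parts than among all tested genes, at 37.5% and 33.0% (70.5% in either direction). Ighv1-81 was at 14.4, 37.4, 95.4 and 86.7 CPM in tumor and 4.74, 2.67, 3.44 and 0.293 CPM in small intestine (log2 fold change 4.39 ± 0.81, edgeR adjusted p = 0.000858). Among segments whose 2 tissue means averaged at least 1 CPM, Igkv1-88, at 6.30 against 0.235 CPM, had the largest rise with the 8 libraries (log2 fold change 4.71 ± 1.12, edgeR adjusted p = 0.00384). Ighv5-6 (4.26), Igkv2-112 (4.01) and Ighv1-50 (3.89) lay below Ighv1-81 on the log2 scale. Igkv1-88, Igkv2-112 and Ighv1-50 passed this cut only through tumor, since they averaged 0.235, 0.118 and 0.607 CPM in small intestine. The ranking therefore favors segments that are low in small intestine. These sizes moved with single libraries: Igkv1-88 was at 6.64 without small intestine 1 and 4.07 without tumor 3, Ighv5-6 at 5.11 without small intestine 1 and 3.65 without tumor 4, and Igkv2-112 at 3.35 without tumor 2.

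Ighv7-1 was the Ighv segment that fell. It was at 0.210, 0.631, 2.21 and 0.699 CPM in tumor and 8.27, 35.1, 6.17 and 0.155 CPM in small intestine, where replicate 4 lay below the tumor range. Its log2 fold change was -3.74 ± 1.24 (edgeR adjusted p = 0.0211). The call was lost without small intestine 2 (-2.38, adjusted p = 0.0769), without tumor 1, 2 or 4 (adjusted p of 0.0517 to 0.0562) and with library totals (-2.88, adjusted p = 0.0531). Ighmbp2, the helicase gene, was at 13.9 against 10.8 CPM (log2 fold change 0.36, edgeR adjusted p = 0.0279).

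**Figure D3:**
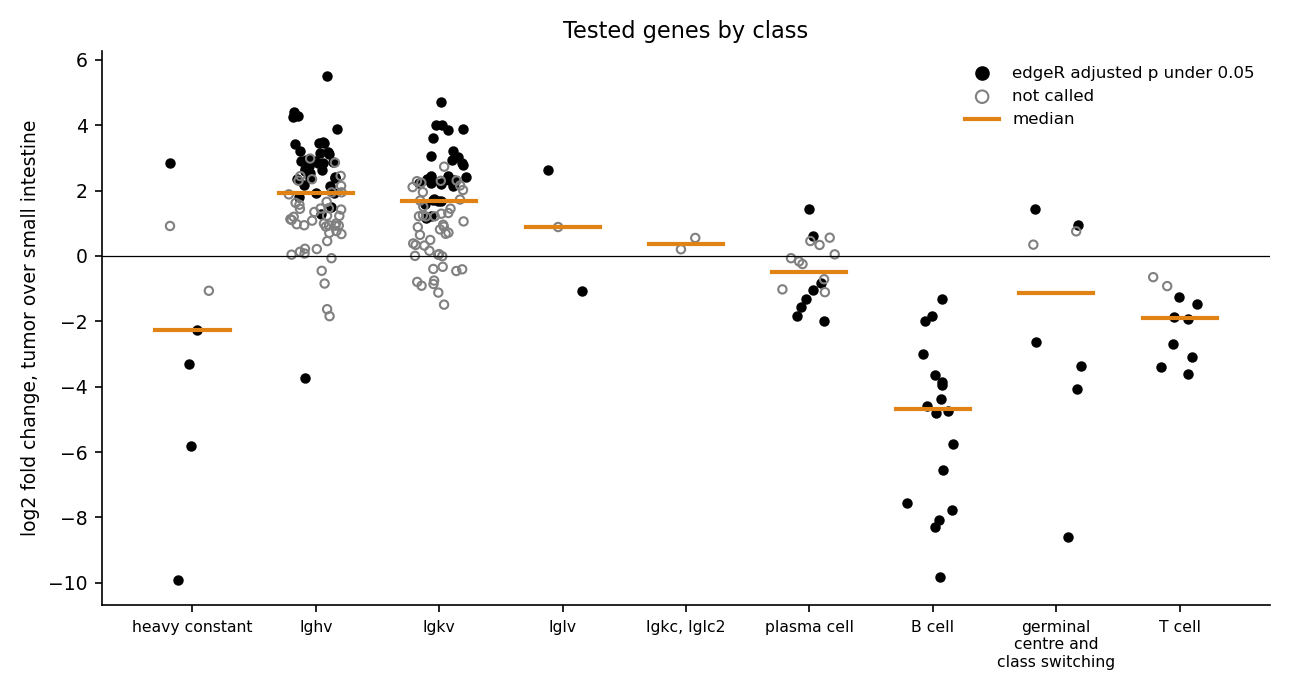
Log2 fold change of expression, tumor over small intestine, with 1 point per tested gene, filled where edgeR's adjusted p was under 0.05 and open otherwise, and orange bars at the median of each class or gene list. Ighv and Igkv segments lay mostly above 0, with medians of 1.93 and 1.67, and B cell genes below 0, with a median of -4.67.

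Within a locus, usage was compared as the share of each segment in the V counts of its library, which does not depend on the scaling between tissues. Ighv1-81 took 5.52%, 6.13%, 8.32% and 7.94% of Ighv counts in tumor and 1.89%, 0.652%, 1.82% and 0.408% in small intestine. Ighv14-2 took 3.35% ± 0.373 against 1.05% ± 0.263 and Ighv5-6 2.77% ± 1.09 against 0.478% ± 0.416 (SD, n = 4), both without overlap. Ighv7-1 took 0.0802%, 0.103%, 0.193% and 0.0641% in tumor and 3.30%, 8.59%, 3.27% and 0.216% in small intestine, again without overlap. In all, 9 of 111 Ighv segments (8.11%) and 7 of 92 Igkv segments (7.61%) had shares that did not overlap between tissues, 8 and 6 of them higher in tumor. That count over all segments is the background for the 4 named ones.

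Among kappa segments, Igkv1-117 took 8.83%, 11.8%, 7.85% and 7.48% of Igkv counts in tumor and 5.47%, 4.18%, 3.61% and 6.06% in small intestine, without overlap. Its near copy Igkv1-110 took 5.83%, 9.81%, 10.7% and 10.7% in tumor and 5.10%, 4.69%, 5.69% and 8.80% in small intestine, which overlapped. Igkv10-96 was high in both tissues, at 6.86% ± 2.68 and 7.39% ± 3.14 (SD, n = 4). Of the 10 most used segments of each tissue, 4 were shared between tissues for Ighv and 4 for Igkv.

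**Figure D4:**
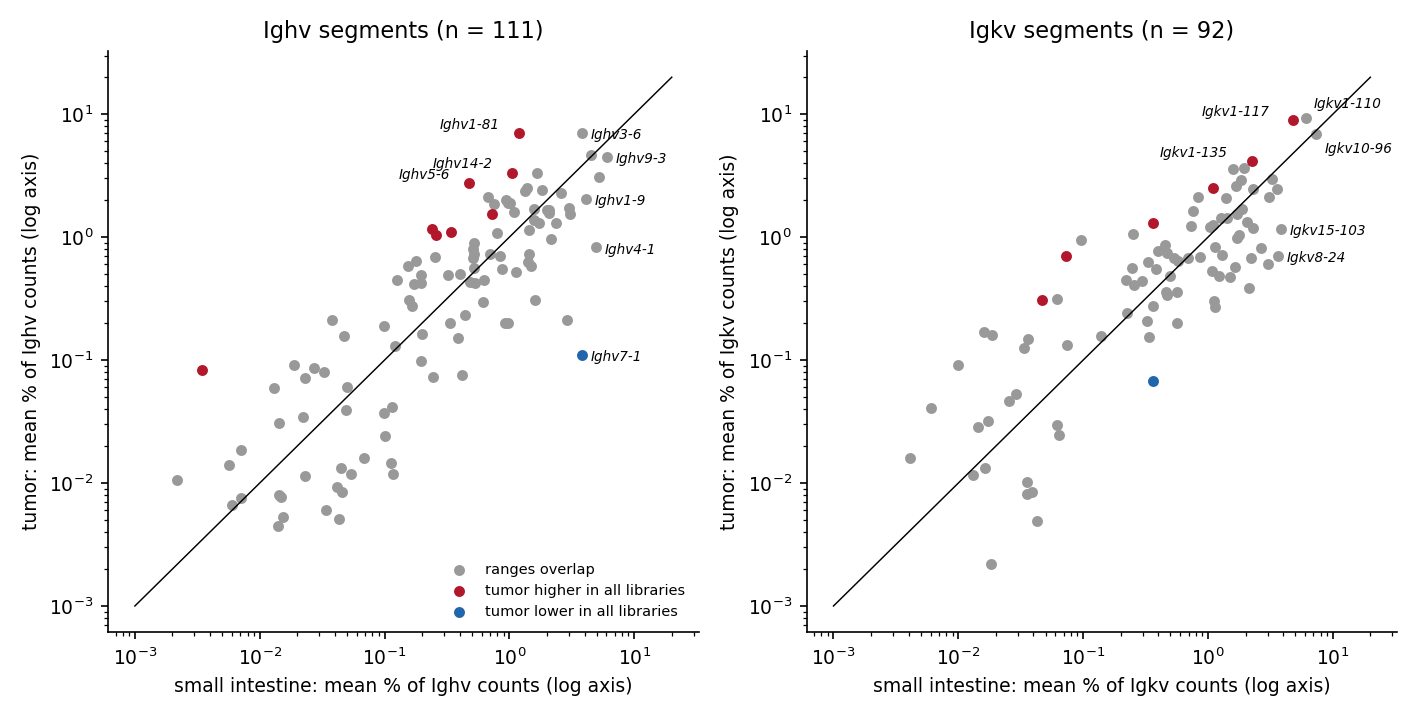
Mean share of each Ighv segment (left) and Igkv segment (right) in the V counts of its locus, small intestine on the x axis and tumor on the y axis, in percent on log axes, with colored points where the 4 libraries of a tissue all lay on one side of the other 4. Ighv1-81, Ighv14-2 and Ighv5-6 lay above the line of equal usage and Ighv7-1 below it.

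Summed by family, which joins segments of like sequence, Ighv1 took 52.4%, 54.4%, 52.6% and 58.1% of Ighv counts in tumor and 45.5%, 48.1%, 42.7% and 46.1% in small intestine (exact permutation p = 0.0286, adjusted p = 0.0429). Shares did not overlap between tissues for 3 of 15 Ighv families (20%) and 3 of 18 Igkv families (16.7%), and only Ighv1 was tested. Of the other Ighv families, Ighv14 was at 5.48% against 2.41% on average and Ighv7 at 1.42% against 6.23%, without overlap. Of the kappa families, Igkv1 was at 23.8% ± 3.76 against 13.9% ± 3.25 (SD, n = 4), Igkv12 at 6.91% against 5.15% and Igkv19 at 0.0671% against 0.360%, without overlap.

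In counts, heavy chain V usage was spread over more segments in tumor. The effective number of Ighv segments, the number of equally used segments that would give the same concentration (inverse Simpson index), was 33.6, 37.4, 30.8 and 35.3 in tumor and 25.9, 25.2, 27.7 and 18.1 in small intestine (exact permutation p = 0.0286, adjusted p = 0.0429). The most used Ighv segment took 7.04%, 7.82%, 8.32% and 7.94% in tumor and 10.9%, 9.14%, 9.69% and 16.3% in small intestine (exact permutation p = 0.0286, adjusted p = 0.0429). By both count measures each tumor library was more even than each small intestine library. From FPKM the calls were lost, with an adjusted p of 0.0514 for the effective number, 0.171 for the most used segment and 0.0514 for the Ighv1 share.

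For kappa no such difference was found. The effective number of Igkv segments was 27.0 ± 4.41 and 27.6 ± 5.32 (SD, n = 4; exact permutation p = 0.914) and the share of the most used segment 10.5% and 8.83% (exact permutation p = 0.171, adjusted p = 0.220). Small intestine 4, the library with the lowest immunoglobulin share of all counts, also had the lowest effective number of Ighv segments. What part that share has in the index was not tested.

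**Figure D5:**
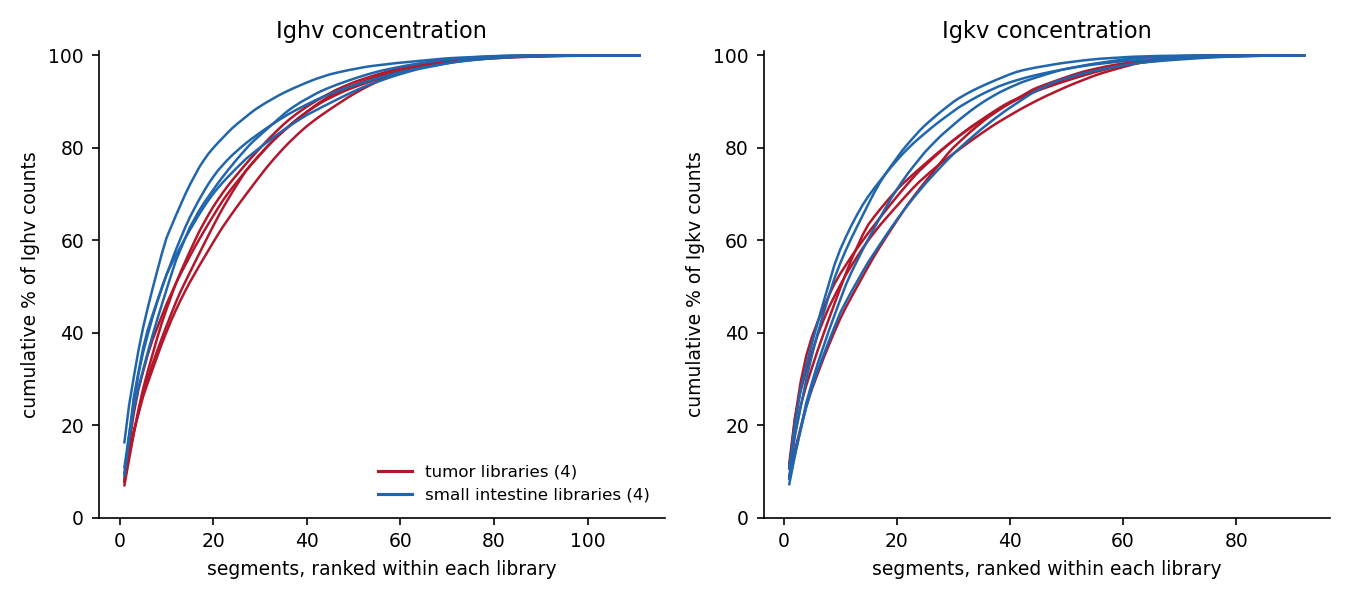
Cumulative percent of Ighv counts (left) and Igkv counts (right) against the number of segments, ranked by use within each library, with 1 line per library, tumor in red and small intestine in blue. The 10 most used Ighv segments took 40.2% to 46.2% in tumor and 49.3% to 60.5% in small intestine, whereas the Igkv lines of the tissues overlapped.

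The leading heavy segment differed from library to library in small intestine. It was Ighv2-6 in replicate 1 (10.9% of Ighv counts), Ighv1-26 in replicate 2 (9.14%), Ighv9-3 in replicate 3 (9.69%) and Ighv4-1 in replicate 4 (16.3%). In tumor it was Ighv3-6 in replicates 1 and 2 and Ighv1-81 in replicates 3 and 4. The leading kappa segment was Igkv10-96 in small intestine 1 to 3 and tumor 3, Igkv14-111 in small intestine 4, Igkv1-117 in tumor 1 and 2 and Igkv1-110 in tumor 4.

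V usage was alike among tumor libraries and less so, by Pearson's r, among small intestine libraries. As a description across the 111 Ighv segments, which are not independent replicates and share a library's depth, Pearson's r of the shares was 0.828 to 0.858 between pairs of tumor libraries and 0.125 to 0.541 between pairs of small intestine libraries. Across the 92 Igkv segments it was 0.830 to 0.908 and 0.279 to 0.729. Spearman's rho was 0.836 to 0.863 and 0.607 to 0.775 for Ighv, but overlapped for Igkv, at 0.736 to 0.854 and 0.615 to 0.765. Libraries of different tissue with the same replicate number had a median r of 0.490 for Ighv and those with other numbers 0.463.

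By position, with the 111 Ighv members cut into 3 blocks of 37 along chr12, the block nearest the J segments took 30.6% ± 3.28 of Ighv counts in tumor and 38.8% ± 3.54 in small intestine, and the farthest block 38.9% ± 1.64 and 33.1% ± 1.88 (SD, n = 4). The farthest block was higher in each tumor library (36.8% to 40.6%) than in each small intestine library (31.2% to 35.02%), and the nearest block lay at 26.8% to 34.5% against 34.7% to 43.2%. The Igkv members, cut likewise into 3 blocks, overlapped between tissues: the nearest block took 30.4% ± 2.02 and 32.0% ± 7.19 and the farthest 46.7% ± 3.63 and 42.1% ± 6.76 (SD, n = 4). These position shares were not tested.

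Genes that mark the cells and steps around antibody production were read from the same fit, where 38.9% of all tested genes rose and 35.4% fell. All 18 B cell genes fell in tumor, with a median log2 fold change of -4.67. Their summed level was 23.4 to 36.8 CPM in tumor and 196 to 707 CPM in small intestine. Of 18 plasma cell genes 2 rose, 6 fell and 10 were not called, a balance that turned to 5 higher and 2 lower with library totals. Their summed level overlapped, at 1645 to 2420 CPM in tumor against 1732 to 2354 CPM. Several of these, among them Xbp1 and Sdc1, are also expressed by gut epithelium.

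Jchain, the chain that links IgA and IgM into polymers, was at 173, 413, 829 and 730 CPM in tumor and 409, 711, 339 and 105 CPM in small intestine (log2 fold change 0.46 ± 0.58, edgeR adjusted p = 0.496). Tumor 1 and small intestine 4 were the lowest of their tissues, as they were for Igha. Mzb1, a plasma cell chaperone cofactor, was at 12.9 and 13.5 CPM (edgeR adjusted p = 0.911). What part the B cell or plasma cell content of a library has in its isotype and V shares was not tested.

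Class switching and germinal centre genes split. Of 8 tested of 10, 2 rose and 4 fell. Rag1, a subunit of the recombinase that joins V, D and J segments, had 0 counts in each of the 8 libraries, and none of the 6 recombination and pre-B genes was high enough to be tested.

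Of 15 genes for transport, survival and homing of mucosal plasma cells, 3 rose and 8 fell (20% and 53.3%). Pigr, the receptor that carries polymeric IgA across the epithelium, was at 978, 492, 674 and 566 CPM in tumor and 4476, 6580, 6732 and 1888 CPM in small intestine, without overlap (log2 fold change -2.86 ± 0.41, edgeR adjusted p = 0.000177). Ccl25, an epithelial chemokine that draws IgA plasma cells to the small intestine, fell from 803 to 7.94 CPM (log2 fold change -6.66, edgeR adjusted p = 1.97e-08). Of 6 epithelial genes 5 also fell and 1 rose, or 3 and 2 with library totals, with log2 fold changes of -3.88 for Vil1, -2.43 for Cldn7 and -1.41 for Krt8. The summed epithelial level was 5225 to 7255 CPM in tumor and 15821 to 22101 CPM in small intestine, and its part in the falls of Pigr and Ccl25 was not tested. Il6, a cytokine that supports plasma cells, was at 3.03, 3.65, 1.55 and 0.474 CPM in tumor and at 0, 0.0884, 0 and 0 CPM in small intestine (log2 fold change 6.48 ± 1.06, edgeR adjusted p = 0.000379). Its small intestine level rests on replicate 2, so the size of the rise is uncertain (fitted log2 fold change 10.27 without that library, no bound).

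Among 12 immunoglobulin receptors, 6 rose and 5 fell (50% and 41.7%, beside 38.9% and 35.4% of all tested genes). Fcer1a, the IgE receptor subunit of mast cells and basophils, rose from 0.0272 to 5.12 CPM on average (log2 fold change 7.46 ± 1.59, edgeR adjusted p = 0.00202), with tumor 3 at 16.8 CPM and the other tumor libraries at 0.397 to 2.87 CPM. Its log2 fold change was 5.46 without tumor 3 and 8.50 without small intestine 2. The IgM receptor Fcmr fell from 20.3 to 0.0347 CPM (log2 fold change -9.07, or -10.08 without tumor 1, edgeR adjusted p = 1.10e-05), and so did the low-affinity IgE receptor of B cells, Fcer2a (log2 fold change -7.56, edgeR adjusted p = 8.95e-06). Of 10 T cell genes 8 fell, of 8 tested lymphoid follicle and M cell genes (of 10) 7 fell, and 8 of 8 macrophage genes rose. The summed follicle and M cell level was 8.48 to 12.2 CPM in tumor and 34.9 to 135 CPM in small intestine. The lists share genes, so their counts are not separate. Pigr is in the receptor and transport lists and Fcer2a in the receptor and B cell lists. Cr2 is in the B cell and follicle lists and Cxcl13 in the transport and follicle lists.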

How the data were processed

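The authors' gene table of raw read counts was used as deposited, and their FPKM table, scaled by the authors for gene length and library size, covers the same 8 libraries. Tools named in the submitters' processing notes were HTSeq 0.6.0, Cufflinks 2.2.1, STAR and FastQC, with the build GRCm38. Not given in the sources used here were the strand setting and the handling of reads matching several genes. Symbols, positions and sequences were matched by identifier to GENCODE M21 for 42462 of 43629 genes. Members, gene lists and tests were chosen with earlier results of these data known. Named were the constant genes, the 5 most used Ighv and Igkv of each tissue, the most used of each library, up to 5 called members per direction with the largest change where the 2 tissue means averaged 1 CPM or more, members within 2 counts of the minimum, Jchain, Mzb1, Pigr, Rag1 and up to 3 called genes per list. Exceptions are marked as chosen after values were seen, and some genes that the rule names are left out.

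Counts were tested with edgeR 4.0.16 (glmQLFit, glmQLFTest, TMM, filterByExpr, tissue as the only term) in R 4.3.3, with Benjamini-Hochberg adjustment over 17029 genes and calls at an adjusted p under 0.05. Within-locus shares were compared by exact 2-sided permutation tests over libraries, adjusted over 9 measures. These are not independent: IgA, IgM and IgG are shares of the same total, and the top share and effective number both describe concentration. On simulated counts (16732 genes, 200 changed, equally up and down), the test recovered 46.9% of 2-fold and 79.8% of 4-fold changes, with 4.58% false calls. In the data 74.3% of 17029 tested genes were called, so these rates need not hold for this comparison. Libraries of a tissue differed from each other beyond sampling noise (lowest chi-square divided by its degrees of freedom 38.9). Alternatives were DESeq2 1.42.0 size factors and Wald test, library totals, other filters, limma 3.58.1 on log2(FPKM + 1), a fit with a replicate block, and leaving out 1 library at a time. V segment promoters were not analysed here.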

Additional observations from a re-analysis of the deposited data

Results flagged for a closer look

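In 128 sets of 4 libraries, 12 held a library whose gap to the nearest other was wider, relative to the set's range, than the 95% limit of Dixon's test for 4 values. Chance gives such a gap in about 1 set in 20. Tumor 1 stood above the other tumor libraries in its IgA share (97.5%, others 96.8% to 96.9%), below them in its IgG share (2.29%, others 3.03% to 3.15%), and above them in the share of Igkv counts from segments in inverted orientation (54.8%, others 50.8% to 51.4%). Small intestine 4 stood apart in Ighg1 (62.4% of Ighg counts) and Ighg2b (35.1%). Ighg3 was high in tumor 2 (1.42% of Ighg counts, others 0.178% to 0.253%) and low in small intestine 3 (1.23%, others 2.24% to 2.33%).

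Ighv4-1, the sole member of the Ighv4 family, took 16.3% of Ighv counts in small intestine 4 (others 0.471% to 2.37%) and 2.42% in tumor 1 (others 0.154% to 0.379%), and is counted above both as segment and as family. Ighv2-6 took 10.9% in small intestine 1 and 0.0961% to 0.334% in the others.

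The heavy joining segments, which the rule does not take in, had deposited FPKM of up to 2450690.0 (Ighj1), 6801120.0 (Ighj2) and 3188080.0 (Ighj4) in small intestine and were listed at 0 in each tumor library. Their counts in tumor ran from 201 (Ighj1 in tumor 1) to 1643 (Ighj2 in tumor 4).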

How the results depend on the processing

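The number of members higher in tumor (71 of those tested) was 111 with library totals, 112 with limma on FPKM and 110 with a pseudocount of 0.1. The number lower (6) was 3 with library totals, 3 with FPKM, 3 with a pseudocount of 0.1 and 2 without a filter on FPKM. Leaving out each library gave 54 to 86 higher and 3 to 7 lower. With the replicate block 58 rose and 3 fell. Whether the replicate numbers pair the samples is not stated, so the block is given here only. Deviations of same-numbered libraries from their tissue means had r of -0.159 to 0.0136 over 17029 genes, which cannot settle pairing. With library totals, 5 plasma cell genes rose and 2 fell. The difference in immunoglobulin share, 0.635 percentage points, was 0.490 to 0.837 with a library left out and 3.32 from FPKM, or 2.54 without the Ighj segments, a setting chosen after seeing the data. From FPKM the differences were 11.1 points for IgA, -3.58 for IgM, -6.33 for IgG, -4.30 for the most used Ighv segment, 8.77 for Ighv1 and 11.8 effective Ighv segments, with adjusted p of 0.0514, or 0.171 for the most used segment. Leaving out each library, they ran from 13.8 to 18.2 (IgA), -7.25 to -5.46 (IgM), -8.48 to -5.89 (IgG), -4.54 to -2.14 (most used Ighv), 7.54 to 9.61 (Ighv1) and 8.03 to 11.2 (effective Ighv). In 30 of these comparisons with a library left out, the adjusted p of the exact permutation test was no longer under 0.05. No result changed sign among these. Depth limits the low segments, and 44 members, the constant gene Ighe among them, did not pass the filter on counts. The cause of the shifts was not tested.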
